A study of Caenorhabditis briggsae with 6 samples.

Results

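Within the 3 Caenorhabditis briggsae Cbr-ivph-3 mutant libraries, a small set of 13 genes was low in replicate 1 and high in replicates 2 and 3. Its members were chosen by their levels, out of 23169 genes in the count table. A gene was taken when its CPM (the count scaled to a library total of 1000000) was at least 10 in mutant replicates 2 and 3, each of these levels was at least 4 times that of mutant replicate 1, and mutant replicate 1 had at most 1/2 of the lowest AF16 level. The first condition left 9062 genes, the fold condition left 30 and the AF16 condition left 13. Because the rule used these libraries, the differences that it fixed are given below as a description, and nothing is read from a test of them.

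The mutant animals were PS9217 hermaphrodites carrying Cbr-ivph-3(sy5216), an allele with an early stop codon, and the controls were hermaphrodites of the AF16 wild-type strain. RNA came from whole L3 larvae of both genotypes, grown at 20 °C on E. coli OP50 after bleach synchronization and staged by division of the vulval precursor cells. Each genotype had 3 independent biological replicates, for 6 libraries in all. The age of the animals within the L3 was not given for single libraries, and in whole animals fewer cells of a type and less RNA per cell cannot be told apart.

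Larval development in Caenorhabditis runs through repeated molts, and many genes of the epidermis, gut and nervous system rise and fall within each larval stage. The germ line proliferates and enters meiosis during late larval life, so genes of germ cells, of the cuticle and of the molting cycle are commonly used to place a larva in time. Globins, one of which was among the 13 genes, are haem proteins that bind oxygen and occur in nematodes as a large family of diverged members.

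Mutant replicate 1 stood apart from both of its sister libraries, and as far from AF16. Across 14241 tested genes, its log2 levels had a Pearson r of 0.947 with mutant replicate 2 and 0.947 with mutant replicate 3, whereas mutant replicates 2 and 3 had 0.997 with each other and the AF16 pairs 0.992 to 0.996 (genes are not independent replicates). With the AF16 libraries, mutant replicate 1 had 0.9428 to 0.9498 and mutant replicates 2 and 3 had 0.9503 to 0.9558. Library totals were 22817581 to 30865944 counts in the mutant and 24625819 to 25760385 in AF16, and mutant replicate 1, with 28440438, was not the shallowest. The mutated gene, Cbr-ivph-3, had 21.4, 24.6 and 24.2 CPM in mutant replicates 1, 2 and 3, against 31.1 ± 1.94 CPM in AF16 (SD, n = 3, lowest 29.97, highest 33.3), so the groups did not overlap in this gene on library totals. With TMM scaling its log2 fold change was -0.72 (SE 0.11, edgeR quasi-likelihood adjusted p = 0.00565), and with library totals it was -0.41, which did not pass the threshold (edgeR adjusted p = 0.0577).

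Mutant replicate 1 was the lowest of the 6 libraries in all 13 genes, as the rule required, and in 25.8% of all tested genes. The mirrored rule, which asked for genes high in mutant replicate 1 alone, found 83 genes. With mutant replicate 2 or mutant replicate 3 put in the place of replicate 1, the rule found 0 genes each. Those libraries had a Pearson r of 0.997 with each other, which left the rule little room to be met.

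The names of the members were sparse. The study's supplementary gene lists paired 3900 identifiers with a locus name and 1860 with a Cbr- symbol. Of the 13 genes, 3 had a locus name and 1 of these had a symbol: Cbr-glb-1 (CBG06867, WBGene00000312), CBG08935 (WBGene00030635) and CBG14825 (WBGene00035216). All 3 are protein-coding genes in the RefSeq annotation, and the other 10 are given by their identifiers. The 23 gene lists used here for larval age, tissues and cell processes were built from symbols, so only Cbr-glb-1 could be looked up in them. It was in none of them, and whether the other members belong to any is unknown. The names at hand point to no larval age and no tissue.

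Cbr-glb-1, the globin, had 13.2 CPM in mutant replicate 1, 67.5 and 62.7 CPM in mutant replicates 2 and 3, and 29.2, 36.9 and 33.6 CPM in AF16. Mutant replicate 1 lay below every AF16 library and the other 2 mutant libraries lay above every one, so the AF16 levels stood between the 2 ends of the mutant group. Replicate 1 reached 20.3% of the mean of replicates 2 and 3 and 45.3% of the lowest AF16 level.

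On library totals 11 members had this shape, and for Cbr-glb-1 and another 4 of them it held with TMM scaling too (trimmed mean of M values, which sets library sizes by the bulk of genes). WBGene00089011, the most abundant member in the mutant, had 43.6 CPM in mutant replicate 1, 192.6 and 200.5 CPM in mutant replicates 2 and 3, and 102.6, 113.3 and 98.9 CPM in AF16. WBGene00033703 had 5.77, 32.8 and 34.9 CPM in mutant replicates 1, 2 and 3, against 11.6, 11.9 and 12.7 CPM in AF16. Its mutant replicates 2 and 3 averaged 2.80 times the AF16 mean, the highest ratio of the 13 genes, and its replicate 1 was the closest to AF16 of any member, at 49.8% of the lowest AF16 level. WBGene00026951 had 2.36, 14.02 and 11.8 CPM in the mutant replicates, against 4.87, 6.75 and 7.32 CPM in AF16. WBGene00089244 had 2.81, 15.5 and 13.996 CPM in the mutant replicates, against 7.15, 9.39 and 6.92 CPM in AF16. In each of these genes the mutant libraries lay on both sides of the AF16 range, with replicate 1 alone on the lower side.

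CBG14825 was 1 of 2 members that were lower than AF16 in all 3 mutant libraries. It had 34.9 CPM in mutant replicate 1, 151.3 and 153.1 CPM in mutant replicates 2 and 3, and 192.1, 210.7 and 194.4 CPM in AF16. WBGene00030633 had 3.90, 17.9 and 19.1 CPM in mutant replicates 1, 2 and 3, against 21.8, 23.1 and 23.2 CPM in AF16. The 2 groups did not overlap in either gene, and the step within the mutant group was larger than the step between mutant replicates 2 and 3 and AF16, whose ratio was 0.765 for CBG14825 and 0.814 for WBGene00030633.

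The other 6 members had mutant replicates 2 and 3 above AF16 on library totals by a smaller step, and not with TMM. CBG08935 had 6.26 CPM in mutant replicate 1, 31.6 and 31.5 CPM in mutant replicates 2 and 3, and 29.1, 29.04 and 27.1 CPM in AF16. WBGene00041295 had 9.92, 58.2 and 55.1 CPM in the mutant replicates, against 49.99, 39.3 and 42.4 CPM in AF16. For these 2 genes and for the rest of the 6, one library was low and the remaining 5 differed among themselves by less than the step down to it. WBGene00041313 had 8.05, 38.5 and 40.0 CPM in the mutant replicates, against 26.8, 38.4 and 32.7 CPM in AF16. WBGene00029278 had 2.43, 14.3 and 14.1 CPM in the mutant replicates, against 10.8, 11.5 and 11.1 CPM in AF16. WBGene00033403, with the largest step of all, had 1.37, 10.4 and 11.9 CPM in the mutant replicates, against 8.85, 8.62 and 7.32 CPM in AF16. WBGene00088022, with the smallest, had 4.89, 19.7 and 21.3 CPM in the mutant replicates, against 14.7, 18.6 and 16.6 CPM in AF16. The ratio of mutant replicates 2 and 3 to AF16 lay between 1.11 in CBG08935 and 1.35 in WBGene00033403.

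**Figure D1:**
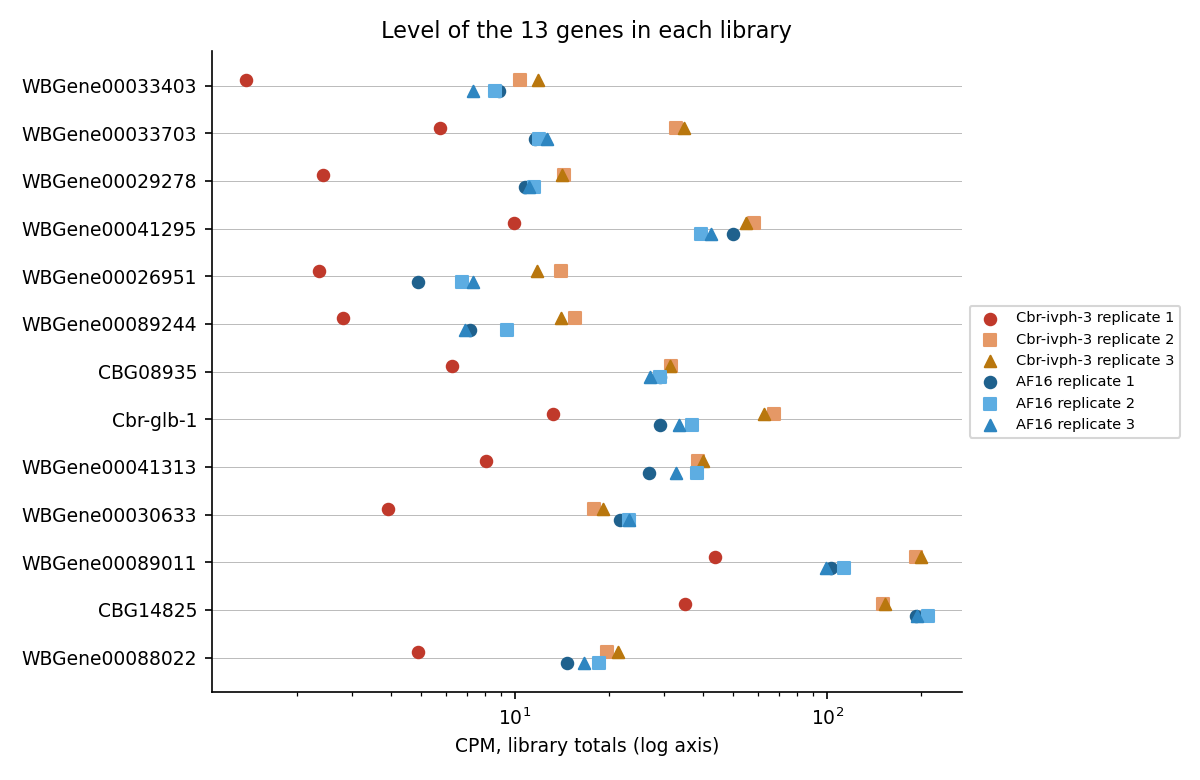
Levels of the 13 genes in each library, in CPM on library totals (log axis), with 1 gene per line and 1 point per library; within a line the Cbr-ivph-3 points are drawn above the AF16 points. Mutant replicate 1 is the leftmost point in every line, at 1.37 to 43.6 CPM, while the other 5 libraries lie close together or fall into a mutant pair and an AF16 trio.

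The counts of mutant replicate 1 ranged between 39 for WBGene00033403 and 1241 for WBGene00089011. Over the 13 genes it held 12.3% to 23.8% of the mean CPM of mutant replicates 2 and 3, with a median of 19.9%. For WBGene00033403, the share against the pooled counts of replicates 2 and 3 was 12.2% (95% exact interval 8.59% to 16.9%), and for WBGene00088022 it was 23.7% (19.7% to 28.3%). The same counts chose the genes, so these intervals describe precision and test nothing. They cover counting error only, since the fragments carried no molecular identifiers, and they say nothing of the spread between cultures. Against the lowest AF16 library, mutant replicate 1 held 17.9% to 49.8%.

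Mutant replicates 2 and 3 kept close to each other in the same genes, with a ratio of replicate 2 to replicate 3 between 0.876 and 1.19. The median absolute log2 difference between them was 0.087 over the 13 genes and 0.077 over the other tested genes. It was smaller, at 0.055, over the 9049 other genes that also had at least 10 CPM in both libraries. The log2 ratio of the highest to the lowest AF16 library had a median of 0.26 in the 13 genes and 0.27 in the other tested genes. In those 9049 genes it was 0.23.

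**Figure D2:**
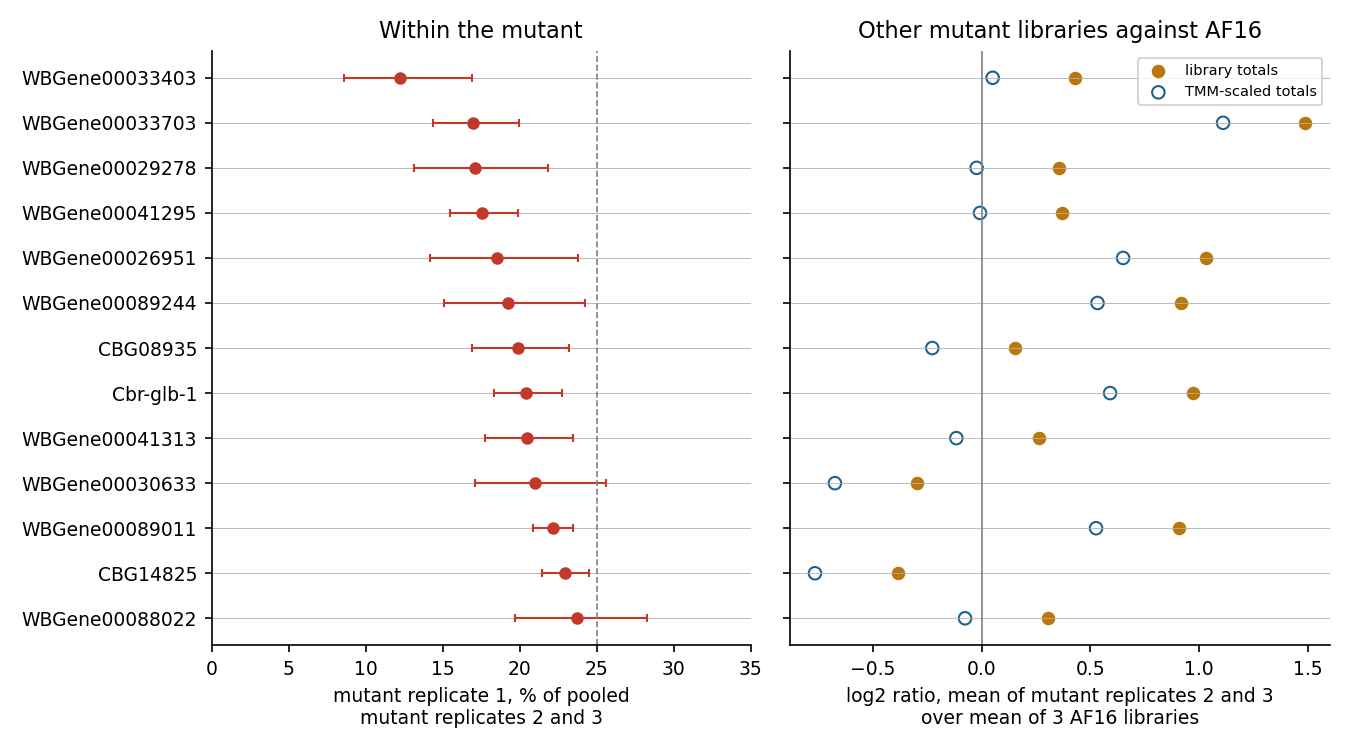
Left, the level of mutant replicate 1 as a percentage of the pooled mutant replicates 2 and 3 for each of the 13 genes. The 95% exact counting intervals are shown, with a dashed line at 25%, a limit that the fold condition set on each library. Right, the log2 ratio of mutant replicates 2 and 3 to the 3 AF16 libraries, on library totals (filled) and on TMM-scaled totals (open). Shares run between 12.2% and 23.7%, and the ratios to AF16 spread to both sides of 0, with a median of 0.37 on library totals and -0.01 with TMM.

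How mutant replicates 2 and 3 stood against AF16 depended on the scaling of the libraries. On library totals both were above every AF16 library in 11 members and below every one in 2, while 61.7% and 17.8% of all tested genes did so. TMM scaling gave 5 members above, 3 below and 5 overlapping, beside 39.7% above and 34.6% below among all tested genes. The 5 above were Cbr-glb-1, WBGene00089011, WBGene00033703, WBGene00026951 and WBGene00089244, and the 3 below were CBG14825, WBGene00030633 and CBG08935. CBG08935 changed sides with the scaling, at a log2 ratio of 0.15 on library totals and -0.23 with TMM. Over all tested genes, the median log2 fold change between genotypes was 0.06 with TMM and 0.37 on library totals. The rule itself, applied to TMM-scaled CPM, was met by 8 of the 13 genes. CBG14825, WBGene00030633, WBGene00089011 and WBGene00088022 fell short of the fold condition. WBGene00033403 fell below the minimum of 10 CPM instead, with TMM-scaled levels of 8.84 in mutant replicate 2 and 1.35 in mutant replicate 1.

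The rule put a step of at least 4 times inside the mutant group, which widens the error of a comparison of genotypes, so the calls over all 6 libraries only describe these genes and nothing is read from them. edgeR's quasi-likelihood test, adjusted over 14241 genes, called 0 of the 13 lower, where 9.8% of all tested genes were called lower, and 0 of the 13 higher, where 11.7% were called higher. At an unadjusted p under 0.05 there was 1 member lower, CBG14825 (log2 fold change -1.17, SE 0.47, adjusted p = 0.125), and 0 higher. DESeq2 called the same gene (log2 fold change -1.23, adjusted p = 0.0312), and limma-voom called 0. Of the 13 fold changes, 8 were negative and 5 positive, and their standard errors were 0.46 to 0.63 on the log2 scale.

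Without mutant replicate 1 the standard errors of the same genes were 0.09 to 0.17. In that fit of 14476 genes, 31.1% of all genes were called higher and 28.6% lower. Among the members 5 were higher and 3 lower, the same 8 genes that TMM placed outside the AF16 range. Cbr-glb-1 was higher in the 2 mutant libraries, with a log2 fold change of 0.58 (SE 0.12, edgeR adjusted p = 0.00296), whereas with replicate 1 in the fit the value was 0.16 (SE 0.50, adjusted p = 0.846). WBGene00033703 had 1.10, WBGene00026951 0.64, WBGene00089244 0.52 and WBGene00089011 0.52 as their log2 fold changes without replicate 1. CBG14825 had -0.77, WBGene00030633 -0.68 and CBG08935 -0.23, the last with an edgeR adjusted p of 0.0449. The rule asked for high levels in these same 2 libraries, so the counts are a description and nothing is read from them against the shares of all genes.

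**Figure D3:**
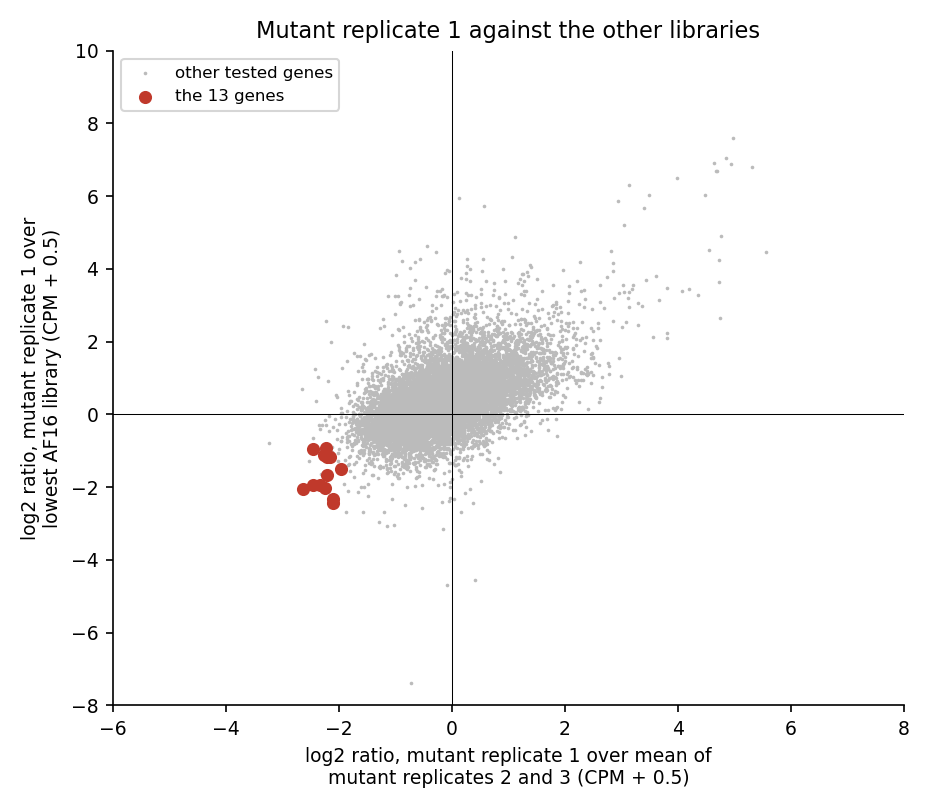
Each point is a tested gene, placed by the log2 ratio of mutant replicate 1 to the mean of mutant replicates 2 and 3 (horizontal) and to the lowest AF16 library (vertical), both on CPM + 0.5. The 13 genes (red) sit at the lower left, where the rule put them, at the edge of a continuous cloud of 14241 genes, and the longest tail of the cloud points the other way, to genes high in mutant replicate 1.

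No gap separated the 13 genes from those just outside the fold condition. The smaller of the 2 ratios to mutant replicate 1 was 4.03 in WBGene00088022, 4.33 in CBG14825 and 4.41 in WBGene00089011 on the inside. It was 3.84 in WBGene00033933, 3.75 in WBGene00089493 and 3.57 in WBGene00024326 on the outside. The nearest gene with a symbol below the limit was Cbr-haao-1, whose C. elegans counterpart encodes 3-hydroxyanthranilate dioxygenase of the kynurenine pathway of tryptophan breakdown. It had 23.6, 77.3 and 74.3 CPM in mutant replicates 1, 2 and 3, against 111.6, 104.1 and 104.2 CPM in AF16. Cbr-gcsh-1, named for the H protein of the mitochondrial glycine cleavage system, had 30.9, 95.8 and 90.1 CPM in the mutant replicates, against 62.7, 76.9 and 64.9 CPM in AF16. Cbr-subs-4 followed with 12.8, 32.96 and 35.4 CPM in the mutant replicates, against 49.5, 41.6 and 35.4 CPM in AF16. These 3 genes met the other conditions of the rule, so their lowest level in mutant replicate 1 was fixed by the choice.

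A fold of 2 in place of 4, chosen after the data were seen, widened the set to 94 genes, of which 48 had a locus name and 24 a symbol. The genes named next were picked from those 24 after their values were seen, for their known roles. Cbr-daf-9, whose C. elegans counterpart is a cytochrome P450 that makes the steroid hormone dafachronic acid and so steers larval progression, had 8.86, 18.9 and 18.2 CPM in mutant replicates 1, 2 and 3, against 34.2, 28.9 and 28.4 CPM in AF16. Cbr-cat-4, named for the GTP cyclohydrolase that makes the cofactor of serotonin and dopamine synthesis, had 18.8, 40.7 and 44.1 CPM in the mutant replicates, against 162.9, 172.2 and 179.7 CPM in AF16. In both genes all 3 mutant libraries were below AF16, with replicate 1 the lowest, as the rule required. The lipocalin-related genes Cbr-lpr-6 and Cbr-lpr-1 were in the wider set too, and Cbr-lpr-6 had 55.8, 128.6 and 128.4 CPM in the mutant replicates, against 426.7, 384.0 and 364.0 CPM in AF16. Cbr-phb-2, a prohibitin of the inner mitochondrial membrane, had 200.7, 421.0 and 421.2 CPM in the mutant replicates, against 459.4, 480.1 and 458.6 CPM in AF16. Cbr-twk-18, a potassium channel of body wall muscle in C. elegans, had 50.9, 118.3 and 111.4 CPM in the mutant replicates, against 108.1, 102.7 and 111.0 CPM in AF16. On library totals, in Cbr-phb-2 mutant replicates 2 and 3 stood just below AF16, and in Cbr-twk-18 just above it. In both genes the rule itself put replicate 1 far below the other 5 libraries.

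Where a neighbour of a named member in the RefSeq gene order was also paired with an identifier, its level could be set beside the member's. CBG14824, next to CBG14825, had 1.37, 3.51 and 4.21 CPM in mutant replicates 1, 2 and 3, against 3.05, 4.23 and 2.82 CPM in AF16. CBG06869, next to Cbr-glb-1, had 1.83, 1.45 and 1.88 CPM in the mutant replicates, against 0.650, 0.427 and 0.557 CPM in AF16. CBG06870, the next gene beyond it, had 3.87, 8.59 and 8.62 CPM in the mutant replicates, against 3.90, 5.59 and 3.46 CPM in AF16. Cbr-grl-25, on the other side of Cbr-glb-1, had 0.352, 0.0877 and 0.0972 CPM in the mutant replicates, against 0.0406, 0.0388 and 0.119 CPM in AF16. Among these 4 neighbours, CBG14824 was lowest in mutant replicate 1 of all 6 libraries, as were 25.8% of all tested genes. CBG06870 was lower there than in mutant replicates 2 and 3 but within the AF16 range. CBG06869, at 1.88 CPM or less, had no such drop, and Cbr-grl-25, at 0.352 CPM or less, was too low to show one.

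Although only 1 member had a symbol to look up, the lists described the library in which the members were low. They were taken over the genes that the supplement names for 2 other C. briggsae mutants, Cbr-spr-4 and Cbr-htz-1, so that their names did not come from these libraries. The supplement names them as differentially expressed in those mutants, so each list is a selected part of its tissue or process. The log2 ratio of mutant replicate 1 to the mean of replicates 2 and 3 (CPM + 0.5) had a median of -0.23 over all tested genes, and over all tested genes named for those 2 mutants it was -0.04 (0.14 with TMM). Mutant replicate 1 was the highest of the 6 libraries in 26.6% of all tested genes and in 40.2% of the genes named for those 2 mutants, and the lowest in 25.8% and 27.2%. The lists with the lowest medians were neuropeptide and synapse genes, at -1.15 (17 genes, with mutant replicate 1 the lowest of 6 libraries in 9), and innate immunity effectors, at -0.73 (27 genes, lowest in 9, or 33.3%). Over all named genes, some of them named from these libraries, these medians were -0.79 (33 genes, lowest in 16) and -0.70 (53 genes, lowest in 13, or 24.5%). The 17 neuropeptide and synapse genes summed to 534 CPM in mutant replicate 1, 986 and 984 CPM in mutant replicates 2 and 3, and 555 to 656 CPM in AF16. The 27 immunity genes summed to 4437 CPM in mutant replicate 1, 4964 and 5005 CPM in mutant replicates 2 and 3, and 2470 to 2906 CPM in AF16. Mutant replicate 1 was thus below the AF16 range in the neuropeptide and synapse sum and above it in the immunity sum. The rule fixed where the 13 genes stood against AF16, so the lists are not compared with them in this.

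Germ line and cuticle lists lay on the other side. Oocyte and early embryo genes had a median of 1.33 (23 genes, with mutant replicate 1 the highest of 6 libraries in 20), P granule and small RNA genes 1.13 (10 genes, highest in 9) and meiosis genes 1.12 (19 genes, highest in 15). The 19 meiosis genes summed to 876 CPM in mutant replicate 1, 577 and 560 CPM in mutant replicates 2 and 3, and 342 to 386 CPM in AF16. Cuticle collagens had a median of 0.67 (28 genes, highest in 24), with sums of 20002 CPM in mutant replicate 1, 9392 and 9702 CPM in replicates 2 and 3, and 11011 to 12666 CPM in AF16. Over all named genes these medians were smaller, at 1.25 for 25 oocyte and early embryo genes and 1.08 for 21 meiosis genes. For 13 P granule and small RNA genes the median was 0.81, and for 62 collagens 0.51 (highest in 39). Genes of molting and cuticle remodelling had 0.32 (17 genes, highest in 8, or 47.1%), and over all 43 named genes of that list, some of them named from these libraries, the median was 0.06, with mutant replicate 1 the highest in 12 and the lowest in 11. Over all named genes, 11 molting-cycle and heterochronic regulators had -0.26 (lowest in 6, highest in 0) and 10 hypodermal and seam genes -0.24 (lowest in 7, highest in 1). Both medians were near that of all tested genes, but the shares with mutant replicate 1 lowest, 54.5% and 70%, were higher. That share was 25.8% over all tested genes and 31.9% over those with a name, some of them named from these libraries. Among the other lists over all named genes it reached 72.4% in 29 oxidative phosphorylation genes and was 0% in 21 meiosis genes. The 11 regulators summed to 1134, 1040 and 1040 CPM in mutant replicates 1, 2 and 3, against 1588 to 1912 CPM in AF16. The 10 hypodermal and seam genes summed to 891, 1043 and 1055 CPM in the mutant replicates, against 1328 to 1465 CPM in AF16. Both sums were below the AF16 range in all 3 mutant libraries. Intestinal genes had a median of -0.08 on library totals and 0.10 with TMM (20 genes, highest in 6 and lowest in 6). The medians of the other lists in this account kept their sign with TMM, under which the median of all tested genes was -0.05. Among the smallest lists, sperm genes had 1.46 and genes of vitellogenin and the switch to the adult 1.22, with 4 genes each and mutant replicate 1 the highest in all 4. No gene of the oocyte, meiosis, P granule, collagen or intestinal lists was under 1 CPM in all 6 libraries. The part of any of these differences in the low levels of the 13 genes was not tested.

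**Figure D4:**
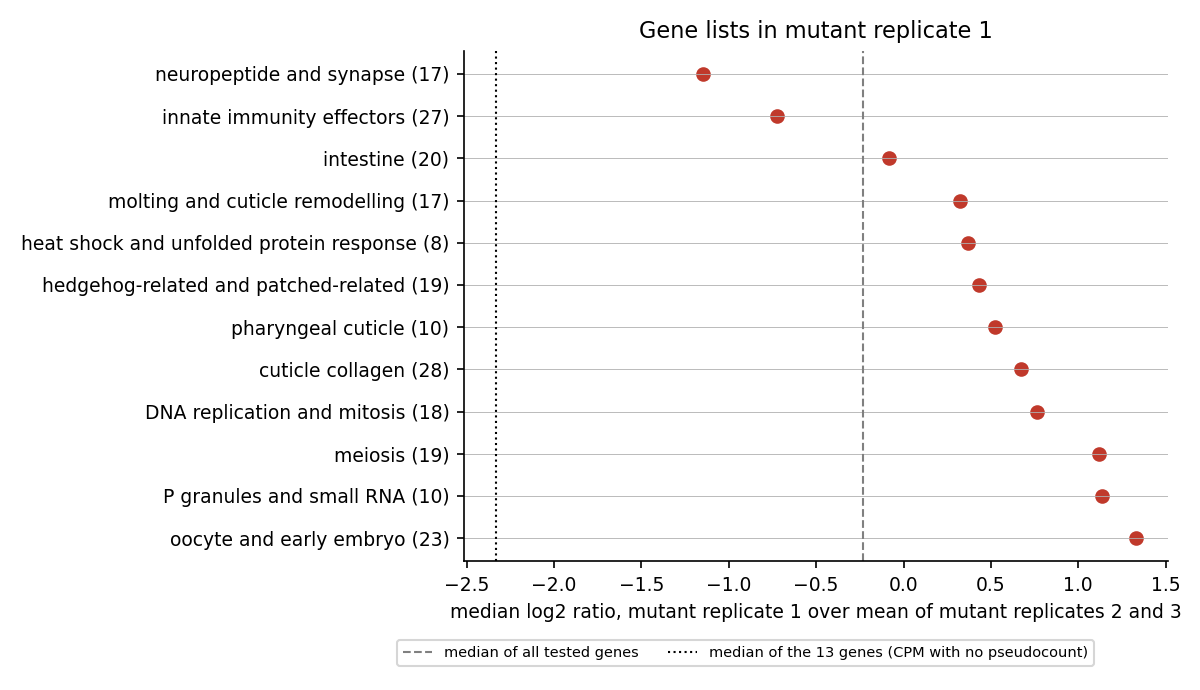
Median log2 ratio of mutant replicate 1 to the mean of mutant replicates 2 and 3 (CPM + 0.5) for each list with at least 8 tested genes, with the number of genes in brackets; the dashed line is the median of all tested genes (-0.23) and the dotted line that of the 13 genes (-2.33, without the added 0.5). Neuropeptide and synapse genes lie lowest of these lists, at -1.15, and oocyte and early embryo genes highest, at 1.33.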

How the data were processed

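Raw gene counts of 6 libraries (3 Cbr-ivph-3, 3 AF16) were used as deposited by the authors, who aligned paired-end Illumina reads with RNA STAR to the WS279 genome on Galaxy and counted fragments per gene with featureCounts under a reverse-stranded setting. Versions were not given in the sources used here. Per the labels, libraries were made with a kit that keeps no strand information. This conflicts with the strand setting, under which fragments of the other orientation would go uncounted and every count would be lower, and it could not be checked from the counts. Reads of overlapping genes on opposite strands cannot be told apart. CPM were computed as the count times 1000000 over the column sum, and 0.5 CPM was added before a log2 ratio unless stated otherwise. Columns of samples not used numbered 0.

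Genotypes were compared with edgeR 4.0.16 (R 4.3.3) by the quasi-likelihood test with TMM scaling, the default expression filter and Benjamini-Hochberg adjustment over 14241 genes, at an adjusted p under 0.05. DESeq2 1.42.0 and limma-voom (limma 3.58.1) were alternatives, with other scalings, filters and rule limits, a replicate block and each library left out in turn. The edgeR code was tested on simulated data. Exact 95% intervals are binomial and cover counting error.

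The members, the gene lists and the alternatives were chosen with earlier results of these data known. Named genes were those members with a symbol, the nearest 3 with a symbol outside the fold limit and Cbr-ivph-3. Cbr-daf-9, Cbr-cat-4, Cbr-lpr-6, Cbr-lpr-1, Cbr-phb-2, Cbr-twk-18, Cbr-clec-140.1, WBGene00027896, CBG23052 and the neighbours of members fell outside that rule, and all but the neighbours were picked after their values were seen. Members without a symbol are given by identifier because only 1 had one. Neighbours came from the RefSeq gene order of the CB4 assembly, whose coordinates were not used. No sequence was analysed here.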

Additional observations from a re-analysis of the deposited data

How the results depend on the processing

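The number of genes that met the rule was 13 on library totals, 8 with TMM-scaled CPM, 7 with DESeq2 size factors and 11 with upper-quartile scaling. A fold of 3 gave 29 genes, a fold of 6 gave 1, and a fold of 2, chosen after the data were seen, gave 94. A minimum of 20 CPM gave 7, dropping the AF16 condition gave 30, and a limit of 25% of the lowest AF16 level gave 5. Mutant replicate 2 or mutant replicate 3 as the low library gave 0 each, where the closeness of those libraries left the rule little room. Leaving out 1 library other than mutant replicate 1, which the rule needs, gave 13 to 16 genes. A library less can only relax the rule, so a count of at least 13 was fixed beforehand. The members' median log2 ratio within the mutant was -2.33 on library totals, -2.14 with TMM and -2.09 with DESeq2 size factors. Genotype calls over all genes numbered 3062, and between 1240 and 8644 with 1 library left out: 1240, 1431 and 1279 without AF16 replicate 1, 2 or 3, and 8644, 1637 and 1618 without mutant replicate 1, 2 or 3. DESeq2 called 1 member lower, and with 1 library left out 0 to 3 members were lower and 0 to 5 higher, the 3 and the 5 without mutant replicate 1. Same-numbered replicates deviated with correlations of 0.152, 0.174 and -0.067, which gave no basis for pairing by number, and the fit with a replicate block made 2336 calls, 0 of them members. The cause of these changes was not tested.

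With 1 low library, its level has no replicate error. Counting error was not small in every member. With 39 counts in mutant replicate 1, WBGene00033403 had an exact interval of 8.59% to 16.9% for its share of replicates 2 and 3. For WBGene00088022, with 139 counts, the interval was 19.7% to 28.3%, which crossed the limit of the fold condition. The spread between cultures limits what can be read as well. Names were at hand for 3 of the 13 genes.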

Other observations

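The AF16 condition removed 17 genes that met the fold condition. In all 17, mutant replicates 2 and 3 were above every AF16 library, as they were in 61.7% of all tested genes. The choice largely fixed this. It left mutant replicate 1 above 1/2 of the lowest AF16 level and replicates 2 and 3 at least 4 times replicate 1. Mutant replicate 1 was below the AF16 range in 9, within it in 1 and above it in 7. WBGene00027896, the most abundant, had 132.2, 630.5 and 619.1 CPM in mutant replicates 1, 2 and 3, against 191.4, 147.1 and 161.0 CPM in AF16. CBG23052 had 59.1, 318.7 and 311.1 CPM in the mutant replicates, against 45.4, 45.3 and 48.9 CPM in AF16. Cbr-clec-140.1, named for the C-type lectin domain family, was the one gene with a symbol among the 17, and had 2.74, 13.1 and 12.7 CPM in the mutant replicates, against 2.07, 1.75 and 2.03 CPM in AF16. In both CBG23052 and Cbr-clec-140.1 mutant replicate 1 lay above every AF16 library, but nearer to AF16 than to mutant replicates 2 and 3. These genes were chosen on the same libraries, so the values are a description.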
